A study of Mus musculus with 18 samples.

Results

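Complement genes were followed in cortex of adult mice across 3 genotypes. The set comprised 7 genes, chosen by symbol from the 55385 genes of the deposited tables: C1qa, C1qb and C1qc, C4b, C2, C3 and Serping1. All 7 passed the filter on low counts, as did 18717 genes in all. Polyadenylated RNA was sequenced from brain cortex of 18 mice, 6 per genotype, with 3 females and 3 males in each. Dp16 mice carry a segmental duplication of mouse chromosome 16 and are used as a model of trisomy 21. In Dp16_2xIFNRs mice the duplication is kept but the interferon receptor genes inside it are back at their normal copy number. WT animals were C57BL/6J, and age at sampling ran from 17.1 to 18 weeks, with no treatment in any group. The duplication is carried by all tissues, so neither duplication genotype is specific to brain cells. The labels do not say whether the animals were littermates. The p-values set each difference against the spread between these samples.

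Complement is a cascade of plasma and tissue proteins that marks surfaces for removal. In its classical pathway C1q, built from the A, B and C chains that C1qa, C1qb and C1qc encode, recognises a target, and the attached proteases cleave C4 and then C2 to form the enzyme that cleaves C3. Serping1 encodes the C1 inhibitor, which blocks those proteases. In the mouse brain C1q is made chiefly by microglia, C4b and C3 are known from astrocytes and other cells, and complement is known for tagging synapses that microglia then remove.

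None of the 7 genes lies on chromosome 16. In build GRCm38 with GENCODE release M21, all on the minus strand, the C1q genes lie side by side at chr4:136880129-136886187 (C1qb), chr4:136889804-136893065 (C1qc) and chr4:136895917-136898803 (C1qa). C4b lies at chr17:34728380-34743882, C2 at chr17:34862604-34898265 and C3 at chr17:57203970-57228136. Serping1 lies at chr2:84765387-84775444. C2 overlaps the gene Gm20547 on its own strand and Zbtb12 on the other. C4b has a near copy, C4a, and 871 of the 5280 stretches of 100 bases in its transcript (16.5%) occur unchanged in C4a, whereas the C1q chains share none with each other.

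C3 and C4b were called in Dp16_2xIFNRs vs WT, and the C1q chains were not. No link between promoter letters and these calls was tested. Promoters were at hand for 3 of the 7 genes, C1qb, C1qc and C3, and not for C4b. Each runs from 250 bases before to 50 bases after the start of the gene in RefSeq (build GRCm38.p6), on the minus strand, at chr4:136886151-136886450 for C1qb, chr4:136892865-136893164 for C1qc and chr17:57228087-57228386 for C3. Capitals mark matches to the motifs searched.
C1qb: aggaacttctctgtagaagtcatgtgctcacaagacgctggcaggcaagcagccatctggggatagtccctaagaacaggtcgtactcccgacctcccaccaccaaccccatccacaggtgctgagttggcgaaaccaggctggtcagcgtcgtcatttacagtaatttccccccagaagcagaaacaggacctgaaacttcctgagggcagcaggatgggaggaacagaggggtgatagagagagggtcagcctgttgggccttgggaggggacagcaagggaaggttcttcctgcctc
C1qc: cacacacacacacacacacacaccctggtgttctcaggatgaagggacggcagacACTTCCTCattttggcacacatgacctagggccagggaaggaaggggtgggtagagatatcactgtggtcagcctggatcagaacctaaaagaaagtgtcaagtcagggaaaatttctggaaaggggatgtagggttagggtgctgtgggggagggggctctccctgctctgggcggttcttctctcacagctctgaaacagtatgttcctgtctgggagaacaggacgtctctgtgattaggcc
C3: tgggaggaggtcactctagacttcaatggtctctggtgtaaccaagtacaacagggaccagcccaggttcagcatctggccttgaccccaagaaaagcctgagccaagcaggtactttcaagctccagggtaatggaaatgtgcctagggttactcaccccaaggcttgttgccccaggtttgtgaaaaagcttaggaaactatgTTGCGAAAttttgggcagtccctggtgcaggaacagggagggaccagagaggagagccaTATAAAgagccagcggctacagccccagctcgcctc
On both strands 5 motifs were searched. They were the interferon gamma element GAS (TTCNNNGAA, in 8.3% of all 32851 promoters of the same length), the core of the interferon regulatory factor element (GAAANNGAA, in 8.56%), the PU.1 site (GAGGAAGT, in 3.2%), the C/EBP site (TTGCNNAA, in 10.8%) and the core promoter box TATAAA (in 13.6%). Matches to different motifs can share letters, but those marked here did not overlap. The C1qc window held the PU.1 letters on the opposite strand, as ACTTCCTC at -195 to -188 from the RefSeq start. The C3 window held the C/EBP letters as TTGCGAAA at -45 to -38 and TATAAA at 14 to 19. The C1qb window held none of the 5, and no window held the letters of an interferon element.

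Library totals ran from 46346019 to 67281449 counts. At that depth the C1q chains and C4b had 800 to 3217 counts per library and Serping1 109 to 489. C3 had only 10 to 120 and C2 only 16 to 58, so counting error weighs most on those 2 genes. WT replicate 6 stood low: among all libraries it had the lowest level of each of the 7 genes and the lowest summed level in 7 of 13 marker lists, namely microglia, astrocytes, reactive astrocytes, border macrophages, endothelium, meningeal fibroblasts and white blood cells. The comparisons with WT are given with and without it. Markers of neurons, astrocytes, oligodendrocytes and microglia were all detected. Summed choroid plexus markers reached 387 CPM (counts scaled to library size) in Dp16 replicate 3 and 201 in WT replicate 5. The highest Dp16_2xIFNRs library held 20.0 CPM. The medians were 12.01 in Dp16_2xIFNRs, 18.5 in Dp16 and 18.4 in WT libraries. In bulk tissue, fewer cells of a type and less RNA per cell cannot be told apart.

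Per unit of transcript length, the microglial C1q chains stood far above the rest of the set. Over all 18 libraries C1qa averaged 48.5 ± 5.02, C1qb 40.8 ± 3.59 and C1qc 37.1 ± 3.17 RPKM (read counts scaled to library size and transcript length, SD, n = 18). C4b followed at 5.45 ± 1.45 RPKM and Serping1 at 2.88 ± 0.730 RPKM. C2 at 0.279 ± 0.0821 RPKM and C3 at 0.163 ± 0.0925 RPKM came last. C1qa stood above C1qb in every library, while the ranges of C1qb (31.4 to 46.5) and C1qc (30.1 to 42.8) overlapped, as did those of C4b (3.13 to 8.36) and Serping1 (1.14 to 3.98) and those of C2 (0.121 to 0.450) and C3 (0.0409 to 0.401). The C1q chains kept a near fixed proportion: in RPKM the ratio of C1qb to C1qa was 0.843 with a coefficient of variation of 4.09%, and that of C1qc to C1qa 0.767 with 4.64%. C3 had the widest spread of the set, with a coefficient of variation of 56.7% in CPM, against 8.95% for C1qc.

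**Figure D1:**
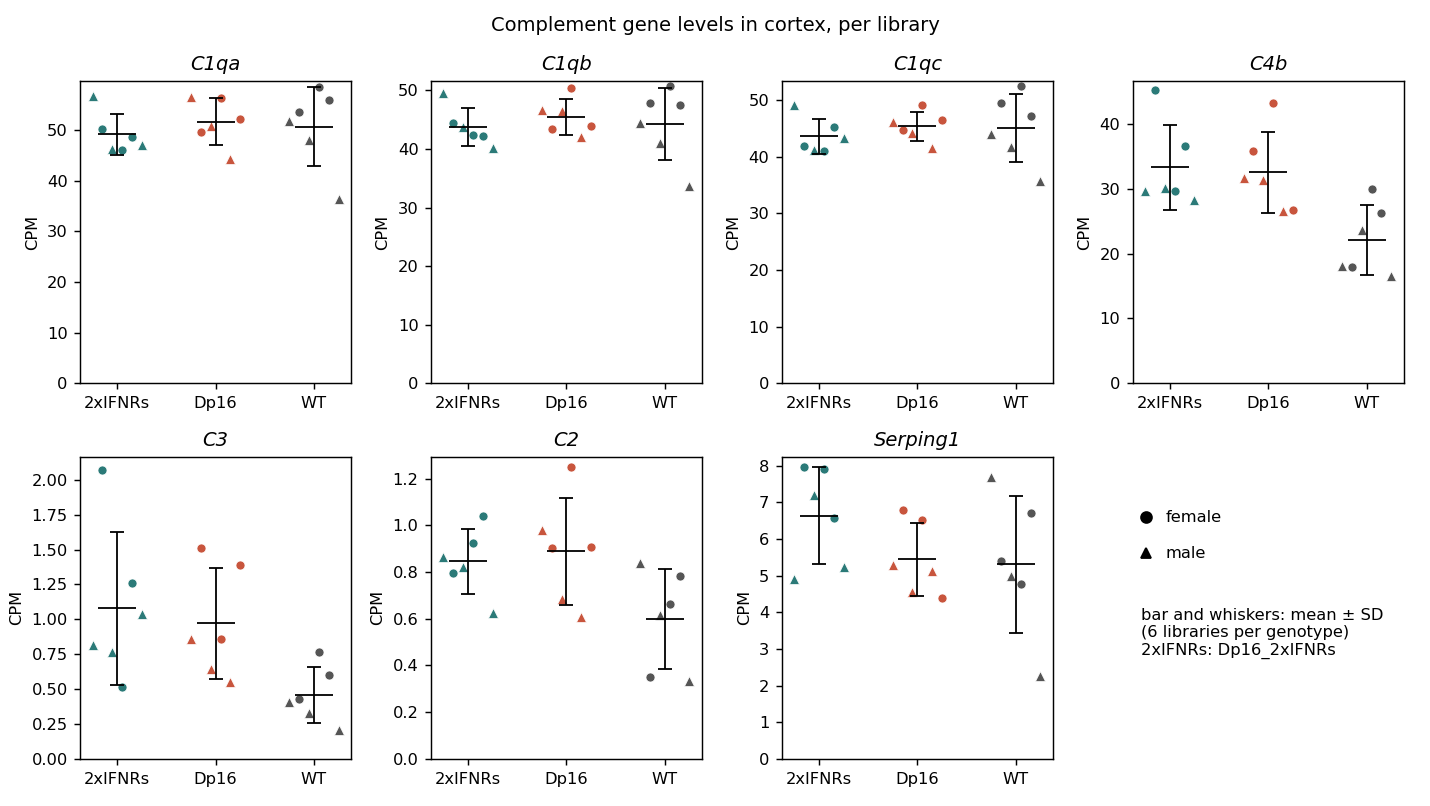
Levels of the 7 complement genes per library in CPM, each panel on its own axis from 0, with 6 libraries per genotype (circles for females, triangles for males) and bars for mean ± SD. The genotypes overlap in the C1q panels, while 5 of 6 WT libraries lie below every library of both duplication genotypes for C4b and 4 of 6 for C3.

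No difference in the C1q chains was detected between the genotypes, and the intervals were narrow. C1qa averaged 49.2 ± 4.08 CPM in Dp16_2xIFNRs, 51.7 ± 4.61 in Dp16 and 50.7 ± 7.88 in WT cortex (SD, n = 6 each). Its lowest, median and highest levels were 46.03, 47.8 and 56.9 CPM in Dp16_2xIFNRs, 44.3, 51.5 and 56.6 in Dp16 and 36.4, 52.8 and 58.4 in WT. The highest library was WT replicate 4 and the lowest WT replicate 6, so the WT range enclosed both others. C1qb averaged 43.8 ± 3.21, 45.5 ± 3.03 and 44.2 ± 6.17 CPM in Dp16_2xIFNRs, Dp16 and WT, and C1qc 43.6 ± 3.11, 45.4 ± 2.53 and 45.1 ± 6.01 CPM in the same order.

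Against WT, the log2 fold changes of C1qa, C1qb and C1qc were -0.04, -0.01 and -0.04 in Dp16_2xIFNRs, with adjusted p of 0.939, 0.991 and 0.905 by edgeR's quasi-likelihood F test with Benjamini-Hochberg adjustment over all genes tested. In Dp16 they were 0.03, 0.05 and 0.01, with adjusted p of 0.969, 0.939 and 0.988. The 95% intervals for C1qa ran from -0.22 to 0.14 in Dp16_2xIFNRs and from -0.15 to 0.21 in Dp16, and for C1qc from -0.18 to 0.10 and from -0.13 to 0.15. Without WT replicate 6 the values of C1qa, C1qb and C1qc were -0.12, -0.08 and -0.10 in Dp16_2xIFNRs and -0.05, -0.02 and -0.04 in Dp16, with adjusted p of 0.514 or more in each. The 16 microglia markers held no called gene in either comparison. Their log2 fold changes had medians of -0.15 in Dp16_2xIFNRs and -0.12 in Dp16, against 0.00 over all genes tested, and 3 and 4 of 16 lay above 0, against 50.2% and 49.3% of all genes. Summed, they gave 559 to 654 CPM in Dp16_2xIFNRs, 559 to 667 in Dp16 and 471 (WT replicate 6) to 736 in WT libraries. Their part in the C1q values was not tested.

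C4b and C3 lay above WT in both duplication genotypes, with similar fold changes in the 2. Of the 7 genes these 2 were called higher in Dp16_2xIFNRs vs WT and none lower, where 1.05% of all genes tested were called in either direction and 0.737% higher. In Dp16 vs WT none of the 7 was called by edgeR, against 0.748% of all genes in either direction and 0.636% higher, although C2, C3 and C4b had an unadjusted p below 0.05, as did 8.84% of all genes. DESeq2 called C4b (adjusted p = 0.00248) and C3 (adjusted p = 0.0198) there, and limma-voom called none of the 7. In Dp16_2xIFNRs vs WT, DESeq2 called C4b (adjusted p = 0.00105) and C3 (0.00159), and limma-voom called C4b alone (0.0305). Over all genes DESeq2 called more in that comparison, 405 against 196 with edgeR. The log2 fold change was above 0 for 4 of the 7 in Dp16_2xIFNRs vs WT and for 7 in Dp16 vs WT. Both comparisons used the same 6 WT libraries. No gene of the set lay above WT in all libraries without overlap, as 0.93% of all genes tested did upward in Dp16_2xIFNRs vs WT and 0.721% in Dp16 vs WT.

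C4b encodes complement C4, whose fragment binds covalently to a marked surface. In Dp16_2xIFNRs the libraries of replicates 1 to 6 held 29.7, 45.2, 30.1, 29.7, 36.7 and 28.3 CPM, and those of Dp16 31.7, 35.8, 31.3, 43.2, 26.6 and 26.7 CPM. In WT they held 18.1, 17.9, 23.6, 29.9, 26.2 and 16.6 CPM. All 6 libraries of each duplication genotype lay above the WT mean, and WT replicate 4 was the only WT library that reached into their ranges.

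C4b averaged 33.3 ± 6.53 CPM in Dp16_2xIFNRs and 22.05 ± 5.38 CPM in WT (SD, n = 6 each), a log2 fold change of 0.59 (SE 0.135, 1.51-fold, edgeR adjusted p = 0.0405). In Dp16 it averaged 32.6 ± 6.24 CPM, a log2 fold change of 0.57 against WT (SE 0.135, 1.48-fold, edgeR adjusted p = 0.0683). The edgeR call in Dp16_2xIFNRs was close to the threshold. It ended without a term for sex (adjusted p = 0.109), without the filter on low counts (0.123) and with the replicate number as a block (0.0613). It also ended when any of 12 of the 18 libraries was left out. These were WT replicates 1, 2, 5 and 6, Dp16 replicates 1, 2 and 3 and Dp16_2xIFNRs replicates 1, 2, 3, 5 and 6, with adjusted p of 0.0985, 0.0820, 0.0681, 0.0774, 0.0540, 0.0560, 0.0571, 0.0650, 0.104, 0.0872, 0.0898 and 0.0697. The fold change was far steadier, from 0.52 to 0.67 on the log2 scale. In Dp16, leaving out WT replicate 4 (adjusted p = 0.0390) or Dp16 replicate 6 (0.0185) made the call. C4a, the near copy, was at 1.58 ± 0.426 CPM in Dp16_2xIFNRs, 1.59 ± 0.925 in Dp16 and 1.39 ± 0.509 in WT, with no call. With C4a counts added, the C4b values were 0.57 in Dp16_2xIFNRs (adjusted p = 0.0390) and 0.55 in Dp16 (0.0632).

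C2, whose product joins C4 in the enzyme that cleaves C3, was scarce and not called. It was at 0.625, 0.844 and 1.04 CPM (lowest, median and highest) in Dp16_2xIFNRs, 0.608, 0.906 and 1.25 in Dp16 and 0.331, 0.640 and 0.838 in WT. Its log2 fold change was 0.49 in Dp16_2xIFNRs (SE 0.225, 95% interval 0.02 to 0.96, edgeR adjusted p = 0.409) and 0.55 in Dp16 (SE 0.225, 0.08 to 1.02, adjusted p = 0.455). Without WT replicate 6 the values for C2 were 0.38 in Dp16_2xIFNRs (adjusted p = 0.514) and 0.45 in Dp16 (0.576). The groups overlapped, since 4 of 6 WT libraries lay within the Dp16 range.

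C3, the protein on which all complement pathways converge, had the largest fold change of the set. The libraries of replicates 1 to 6 held 0.813, 2.07, 0.766, 0.518, 1.26 and 1.04 CPM in Dp16_2xIFNRs and 0.860, 1.51, 0.647, 0.860, 0.549 and 1.39 CPM in Dp16. In WT they held 0.409, 0.428, 0.328, 0.767, 0.598 and 0.207 CPM. Again every duplication library lay above the WT mean, and WT replicates 4 and 5 reached into both ranges.

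C3 averaged 1.08 ± 0.549 CPM in Dp16_2xIFNRs and 0.456 ± 0.199 CPM in WT (SD, n = 6 each), a log2 fold change of 1.27 (SE 0.280, 2.41-fold, edgeR adjusted p = 0.0284). In Dp16 it averaged 0.970 ± 0.394 CPM, a log2 fold change of 1.08 (SE 0.281, 2.12-fold, edgeR adjusted p = 0.0971). The call in Dp16_2xIFNRs ended with limma-voom (adjusted p = 0.144), without a term for sex (0.111), and without WT replicate 2 (0.0814), 3 (0.0588) or 5 (0.0547) or Dp16_2xIFNRs replicate 2 (0.103), 3 (0.0510) or 6 (0.0634). Leaving out single libraries kept the log2 fold change between 1.07 and 1.47. In Dp16, C3 was called when Dp16_2xIFNRs replicate 4 was left out (adjusted p = 0.0153), a library of neither group that enters through the shared estimate of spread. Without WT replicate 6, C3 stood at 1.17 in Dp16_2xIFNRs (adjusted p = 0.0479) and 0.99 in Dp16 (0.179), and C4b at 0.55 (0.0774) and 0.52 (0.159).

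Serping1, which encodes the inhibitor of the first step, was not called in either comparison with WT. It averaged 6.63 ± 1.32 CPM in Dp16_2xIFNRs, 5.45 ± 1.00 in Dp16 and 5.30 ± 1.86 in WT (SD, n = 6 each). Its lowest, median and highest levels were 4.90, 6.89 and 7.96 CPM in Dp16_2xIFNRs, 4.38, 5.21 and 6.79 in Dp16 and 2.26, 5.20 and 7.69 in WT. The genotypes overlapped widely, with WT replicate 1 near the top. The log2 fold change was 0.31 in Dp16_2xIFNRs (95% interval -0.11 to 0.73, edgeR adjusted p = 0.614) and 0.03 in Dp16 (-0.39 to 0.46, adjusted p = 0.989). Single WT libraries moved these values. In Dp16_2xIFNRs the Serping1 value was 0.17 without WT replicate 6 (edgeR adjusted p = 0.727) and 0.51 without WT replicate 1 (0.258), and in Dp16 it was -0.11 (0.905) and 0.23 (0.817).

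**Figure D2:**
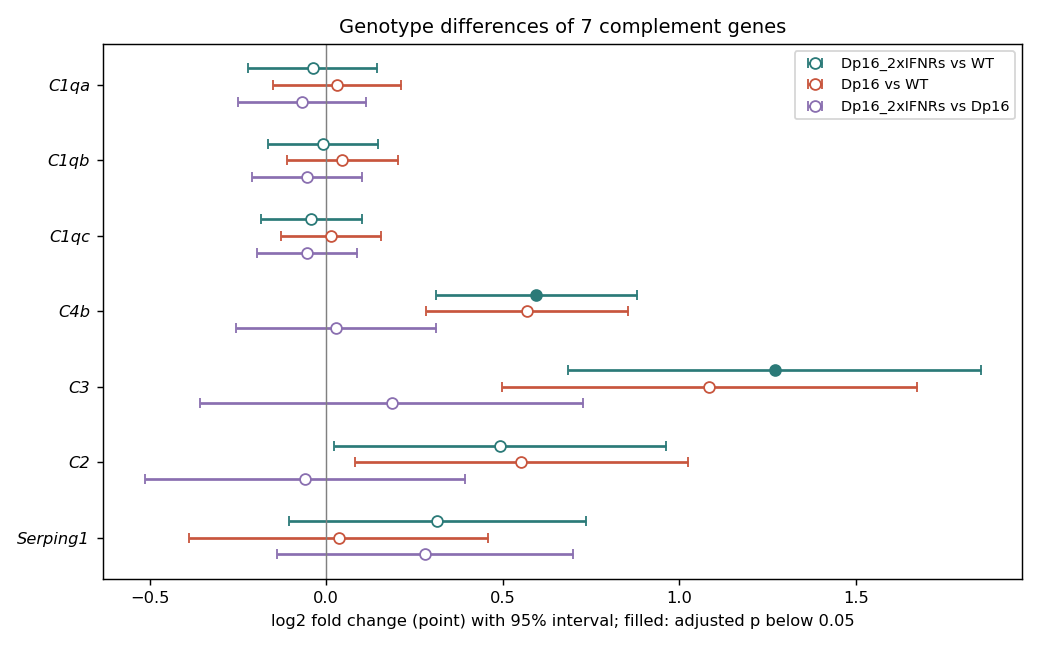
Log2 fold changes of the 7 genes in the 3 genotype comparisons (points, edgeR) with 95% intervals, filled where the adjusted p was below 0.05. C4b at 0.59 and C3 at 1.27 in Dp16_2xIFNRs vs WT are the filled points, and the C1q chains lie between -0.07 and 0.05 in all 3 comparisons.

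The comparison of the duplication genotypes with each other, which differ in the copy number of the interferon receptors, gave no detectable difference in the set. In Dp16_2xIFNRs vs Dp16 none of the 7 genes was called by edgeR, DESeq2 or limma-voom and none had an unadjusted p below 0.05, where 0.0214% of all genes were called and 2.19% had an unadjusted p below 0.05. The log2 difference was 0.03 for C4b (95% interval -0.26 to 0.31), 0.19 for C3 (-0.36 to 0.73) and -0.06 for C2 (-0.51 to 0.39). For C1qa, C1qb and C1qc it was -0.07, -0.05 and -0.05, and for Serping1 0.28 (-0.14 to 0.70). The intervals of C3 and C2 reach well to either side of 0 and that of Serping1 mainly above it, while those of the C1q chains do not extend beyond -0.25 and 0.11.

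Set against C1q in the same library, C4b was higher on average in both duplication genotypes than in WT, by a narrow margin at the edges of the ranges. As a percentage of the mean C1q chain in RPKM, C4b was 15.1 ± 3.02 in Dp16_2xIFNRs, 14.0 ± 2.09 in Dp16 and 9.68 ± 1.72 in WT (SD, n = 6 each). The range was 11.7 to 20.3 in Dp16_2xIFNRs, 11.5 to 17.0 in Dp16 and 7.28 to 11.4 in WT, so that the highest WT library (replicate 4, at 11.39) stood just under the lowest Dp16 library (replicate 6, at 11.53). Of the tested genes other than the C1q chains, 0.663% lay apart upward in this ratio in Dp16_2xIFNRs vs WT, 0.427% in Dp16 vs WT and 0.273% in both. C3 as a percentage of the mean C1q chain was 0.510 ± 0.259, 0.439 ± 0.183 and 0.203 ± 0.0656 in Dp16_2xIFNRs, Dp16 and WT, with overlap. These ratios are descriptions and carry no test.

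**Figure D3:**
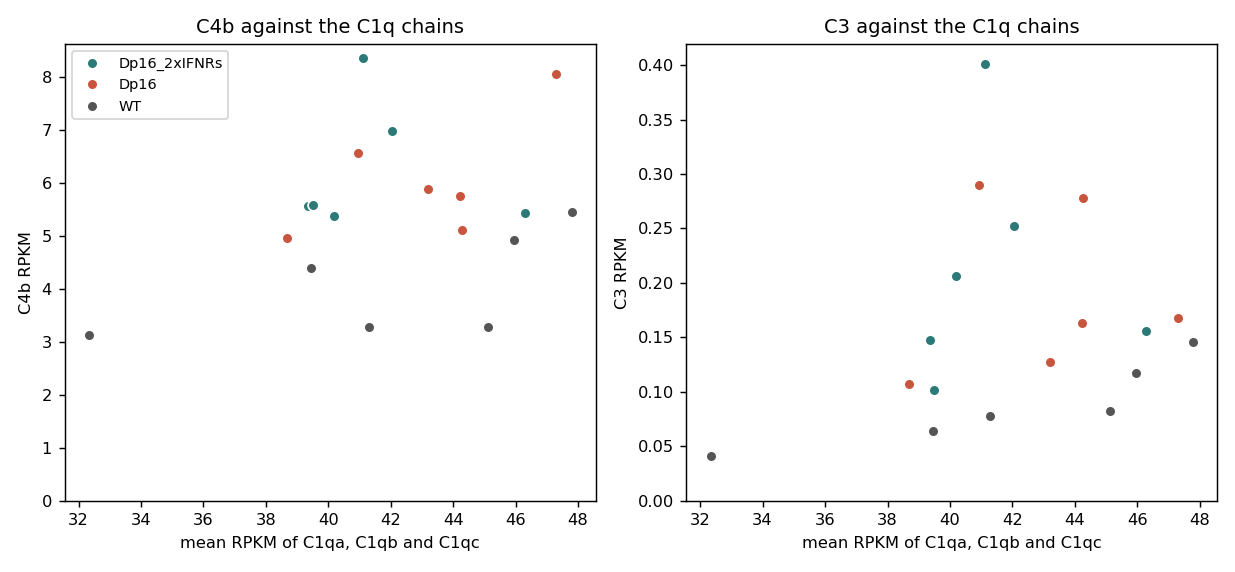
C4b (left) and C3 (right) in RPKM against the mean RPKM of the 3 C1q chains, 1 point per library (horizontal axes do not start at 0). WT libraries span the range of C1q but lie along the lower edge for C4b, from 3.13 to 5.44 RPKM, and for C3, from 0.0409 to 0.146 RPKM.

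Several marker lists had most of their members above 0 where C4b and C3 were higher, and others did not. The part of the lists in the result was not tested. Of all genes tested, 50.2% lay above 0 in Dp16_2xIFNRs vs WT and 49.3% in Dp16 vs WT. Of 18 reactive astrocyte markers, 14 in Dp16_2xIFNRs and 16 in Dp16 had a log2 fold change above 0 against WT, with medians of 0.15 and 0.16. Of these markers 1, Lcn2, was called higher in Dp16, where 0.636% of all genes were. Summed, they gave 307 to 370 CPM in Dp16_2xIFNRs, 299 to 386 in Dp16 and 255 to 356 in WT. Of the 10 general astrocyte markers 6 in Dp16_2xIFNRs and 7 in Dp16 lay above 0, with medians of 0.01 in both. Among them 1, the growth factor receptor gene Fgfr3, was called lower in Dp16_2xIFNRs (log2 fold change -0.30, edgeR adjusted p = 0.0464), where 0.31% of all genes were.

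Of 9 border macrophage markers 7 in Dp16_2xIFNRs and 5 in Dp16 lay above 0, with medians of 0.20 and 0.06, and Siglec1 and Folr2 were called higher in Dp16, where 0.636% of all genes were. That list summed to 10.2 to 15.4 CPM in Dp16_2xIFNRs, 11.6 to 15.98 in Dp16 and 7.21 to 15.3 in WT, so the ranges overlapped. All 5 blood markers lay above 0 in both comparisons, uncalled, with sums of 37.5 to 105 CPM in Dp16_2xIFNRs, 33.1 to 85.9 in Dp16 and 36.9 to 55.5 in WT. The 7 white blood cell markers summed to at most 3.00 CPM in any library, and the 3 of them that could be tested lay above 0 in both comparisons, uncalled, with medians of 0.66 in Dp16_2xIFNRs and 0.96 in Dp16.

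Oligodendrocyte markers lay above 0 for 8 of 8 in Dp16_2xIFNRs and 7 of 8 in Dp16, with medians of 0.13 and 0.03 and sums of 5455 to 6004, 4999 to 6602 and 4802 to 6227 CPM in Dp16_2xIFNRs, Dp16 and WT. Meningeal fibroblast markers did so for 8 and 7 of 10, with medians of 0.18 and 0.04. Other lists did not lean upward in both comparisons. In the same order, endothelium markers lay above 0 for 3 and 5 of 10 and pericyte markers for 1 and 2 of 6. Neuronal markers did so for 5 and 4 of 10 and striatal markers for 4 and 1 of 5. Choroid plexus markers did so for 1 and 8 of 8, with medians of -0.78 and 0.34. None of these was called. No listed marker set was at 0.

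Taken over the 3 genotypes together, female libraries averaged above male ones for the whole set, and no difference was called. All 7 genes had a female to male log2 fold change above 0, as did 51.6% of all genes tested, and none was called by edgeR, DESeq2 or limma-voom, where edgeR called 0.0641% of all genes. Several marker lists had the same direction: 13 of 16 microglia markers, 9 of 10 astrocyte, 15 of 18 reactive astrocyte, 8 of 9 border macrophage and 9 of 10 meningeal fibroblast markers lay above 0, with medians of 0.06, 0.07, 0.09, 0.16 and 0.38 and no call. Other lists went the other way, with 3 of 10 neuronal, 1 of 8 choroid plexus and 0 of 5 blood markers above 0. Their medians were -0.06, -0.18 and -0.07. The part of the marker lists in the sex values was not tested. C3 averaged 1.05 ± 0.549 CPM in females and 0.624 ± 0.273 in males (SD, n = 9 each), a log2 fold change of 0.77 (SE 0.222, unadjusted p = 0.00253, edgeR adjusted p = 0.741). C4b averaged 32.4 ± 8.70 CPM in females and 26.2 ± 5.63 in males, a log2 fold change of 0.31 (SE 0.11, unadjusted p = 0.0125, edgeR adjusted p = 0.741). These 2 had an unadjusted p below 0.05, as did 6.64% of all genes.

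C3 means were higher in females within each genotype: females and males averaged 1.28 and 0.872 CPM in Dp16_2xIFNRs, 1.25 and 0.685 in Dp16 and 0.598 and 0.315 in WT (n = 3 each). The C1q chains went the other way in Dp16_2xIFNRs. Females and males there averaged 48.3 and 50.1 CPM for C1qa, 43.0 and 44.5 for C1qb and 42.7 and 44.5 for C1qc. Over all genotypes the female to male log2 fold change of C1qa was 0.10, and 0.05 without WT replicate 6. No genotype difference of the 7 genes differed between the sexes after adjustment (interaction terms in edgeR). The C1q chains came closest: in Dp16_2xIFNRs vs WT the female less the male log2 difference was -0.36 for C1qc (unadjusted p = 0.00675), -0.34 for C1qb (0.0189) and -0.36 for C1qa (0.0416), with an adjusted p of 0.826 for each, where 5.87% of all genes had an unadjusted p below 0.05. In Dp16 vs WT none of the 7 had one, where 3.08% of all genes did. C1qc averaged 42.7 ± 2.22 CPM in Dp16_2xIFNRs females and 49.7 ± 2.71 in WT females, against 44.5 ± 4.11 in Dp16_2xIFNRs males and 40.5 ± 4.31 in WT males (SD, n = 3 each). WT replicate 6, low for every gene of the set, is 1 of those 3 WT males. The Dp16_2xIFNRs and WT females, which do not include that library, did not overlap for any C1q chain. Among females the highest Dp16_2xIFNRs levels of C1qa, C1qb and C1qc were 50.2, 44.3 and 45.2 CPM. The lowest WT levels there were 53.7, 47.5 and 47.1 CPM. The males of these genotypes overlapped for each chain. In females alone C1qc was lower at an unadjusted p below 0.05 (edgeR), and none of the 7 was called.

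Within genotype and sex, the C1q chains varied together. After subtraction of the mean of each combination of genotype and sex from log2 CPM, Pearson's r over the 18 libraries was 0.91 for C1qa and C1qb (Spearman's rho 0.88), 0.90 for C1qa and C1qc (0.88) and 0.83 for C1qb and C1qc (0.76), with permutation p adjusted over 21 pairs of 0.00609, 0.00609 and 0.0201 for r and of 0.0150, 0.0128 and 0.0299 for rho. C2 joined them in part, at 0.76 with C1qa (rho 0.73, adjusted permutation p = 0.0201 and 0.0299) and 0.70 with C1qb (rho 0.69, 0.0445 and 0.0596). With C1qc it did not pass, at 0.61 (rho 0.59, adjusted permutation p = 0.130 and 0.134). When genotype means alone were subtracted, C2 passed with no C1q chain (lowest adjusted permutation p = 0.0727, with C1qa). Unadjusted, the permutation p of the 5 values of r that passed were 0.00058, 0.00050, 0.00383, 0.00293 and 0.0106. Without WT replicates 6 and 1, the libraries farthest from the median on the first gene, r was 0.84, 0.84 and 0.72 within C1q, and 0.58 and 0.49 with C2. When WT replicate 6 alone was left out before the subtraction, C1qa with C1qb and with C1qc were the pairs that passed. The relations of C2 with C1q and of C1qb with C1qc thus rest in part on that library.

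C4b and C3 passed with no other gene. Their r with each other was 0.48 (rho 0.34, permutation p = 0.137, adjusted 0.240). It was 0.24 with Dp16_2xIFNRs replicates 4 and 2 dropped after the subtraction of means. With C1qa, r was 0.47 for C4b (rho 0.49, permutation p = 0.0360, adjusted 0.126) and 0.43 for C3 (rho 0.40, permutation p = 0.0472, adjusted 0.130). Serping1 had an r of 0.50 with C1qa, which became -0.18 with WT replicates 6 and 1 dropped after the subtraction of means. The values of one library share its depth and dissection, and cells of several types contribute to each.

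**Figure D4:**
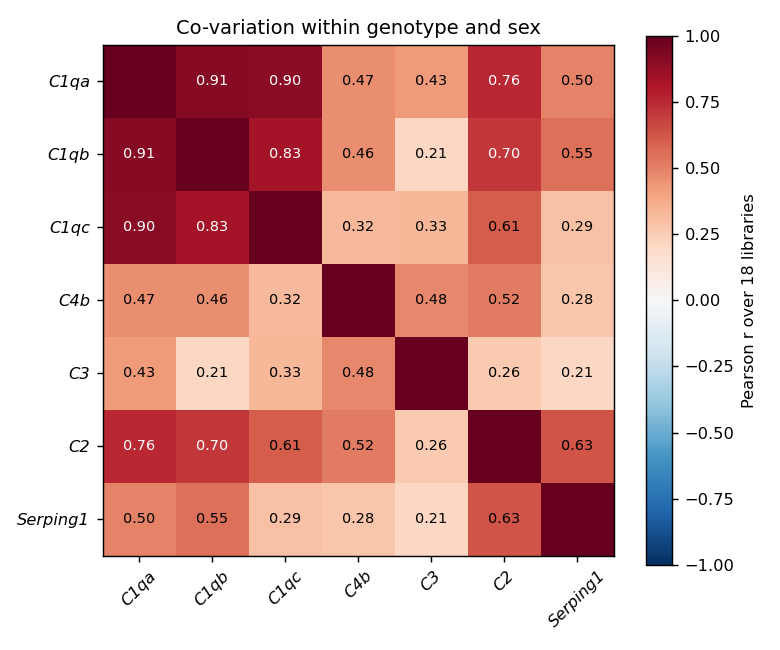
Pearson's r between the 7 genes over 18 libraries, on log2 CPM with the mean of each genotype and sex subtracted. The block of C1q chains stands at 0.83 to 0.91, C2 with C1qa at 0.76, and C3 with C4b at 0.48.

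The genes most like each profile over the same 18 libraries were taken as the 3 of highest r among 18710 genes outside the set, as a description. As above, r used log2 CPM with the mean of each genotype and sex subtracted. Picking the highest of so many values raises r by selection, and no test was made. For the mean of the C1q chains they were Slc25a23 (0.95), Gm2a (0.93) and Selenow (0.93), and for C4b Cfap126 (0.88), Nfe2l2 (0.88) and Lyn (0.88). C3 was most like Rrp7a (0.88), Gm3222 (0.87) and Morrbid (0.86), and C2 most like Pbxip1 (0.90), Metrn (0.88) and Gpr65 (0.86). Serping1 was most like Col1a1 (0.95), Fmod (0.95) and Col1a2 (0.94), which encode fibrillar collagen chains and a collagen-binding proteoglycan and belong to the list of meningeal fibroblast markers. That list summed to 125 to 198 CPM in Dp16_2xIFNRs, 134 to 196 in Dp16 and 88.9 (WT replicate 6) to 183 in WT libraries. With WT replicate 6 dropped after the subtraction of means, r was 0.92, 0.90 and 0.90. The subtracted means still included that library, so its weight in these values was not fully removed.

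The rest of the pathway showed no call. Of 51 further complement genes 35 were tested, and none was called by edgeR, DESeq2 or limma-voom in any of the 3 genotype comparisons or for sex. The edgeR test gave an unadjusted p below 0.05 to 4 of the 35 in Dp16_2xIFNRs vs WT, where 11.5% of all genes did, to 2 in Dp16 vs WT and to 0 in Dp16_2xIFNRs vs Dp16. Their median log2 fold changes were 0.04, 0.03 and 0.01, against 0.00 over all genes tested. By role, the values above 0 in Dp16_2xIFNRs and Dp16 against WT numbered 5 and 7 of 8 among enzymes and recognition proteins, 1 and 1 of 3 in the terminal pathway, 8 and 8 of 16 among regulators and 4 and 4 of 7 among receptors.

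Among those genes the recognition and protease group was led by Masp1, a protease of the lectin pathway, at 15.1 ± 1.07 CPM in Dp16_2xIFNRs, 15.2 ± 1.71 in Dp16 and 16.6 ± 1.18 in WT (edgeR adjusted p = 0.534 and 0.684 against WT). Colec12, a scavenger receptor with a collectin domain, followed at 11.9 ± 1.89, 11.2 ± 1.45 and 11.1 ± 2.56 CPM. Properdin, encoded by Cfp, which stabilises the alternative pathway enzyme, was at 6.81 ± 1.31, 6.73 ± 3.34 and 6.88 ± 2.47 CPM. The terminal pathway genes C7 (0.667 ± 0.231, 0.629 ± 0.207 and 0.808 ± 0.263 CPM) and C8g (0.534 ± 0.161, 0.564 ± 0.106 and 0.593 ± 0.174 CPM) were scarce, each in the order Dp16_2xIFNRs, Dp16 and WT.

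Clu encodes clusterin, an inhibitor of the terminal complex, and was the most abundant regulator, with 878 ± 69.6 CPM in Dp16_2xIFNRs, 906 ± 62.9 in Dp16 and 1009 ± 125 in WT. Its log2 fold change was -0.20 in Dp16_2xIFNRs (edgeR adjusted p = 0.268) and -0.15 in Dp16 (0.575). Sez6l2, a neuronal protein with complement control domains, was at 414 ± 24.4, 412 ± 37.2 and 442 ± 39.5 CPM in the same order. The chains of the C3 fragment receptor CR3, Itgam and Itgb2, were at 8.59 ± 1.04, 9.52 ± 0.889 and 10.1 ± 1.70 CPM and at 8.14 ± 0.607, 8.38 ± 0.937 and 7.48 ± 1.22 CPM. Itgam had a log2 fold change of -0.24 in Dp16_2xIFNRs (edgeR adjusted p = 0.378) and Itgb2 of 0.12 (0.737).

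**Figure D5:**
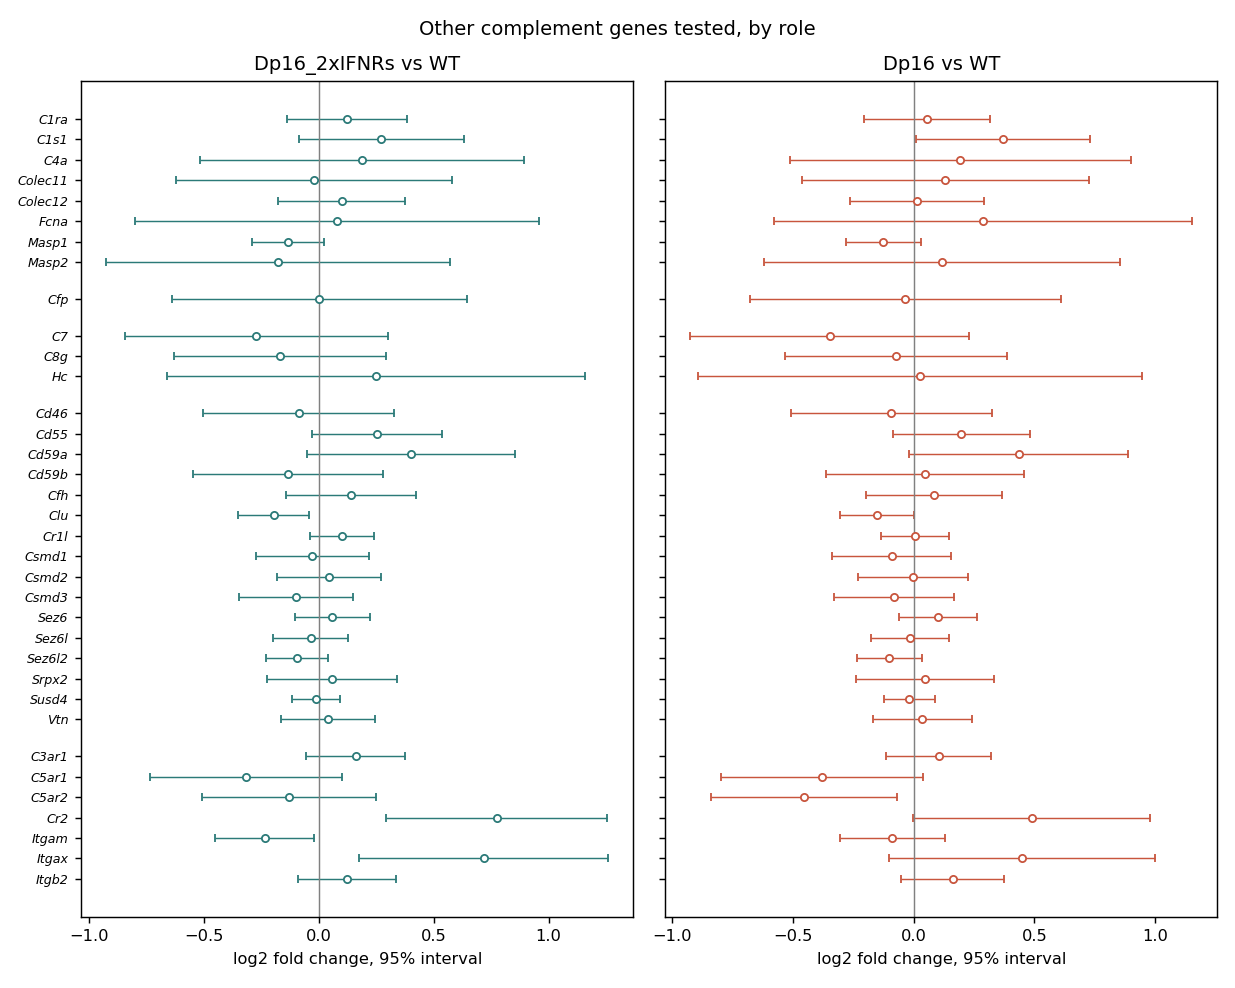
Log2 fold changes with 95% intervals (edgeR) of the 35 further complement genes tested, in Dp16_2xIFNRs vs WT (left) and Dp16 vs WT (right), in blocks from top to bottom of enzymes and recognition proteins, alternative pathway, terminal pathway, regulators and receptors. Points run from -0.32 (C5ar1) to 0.77 (Cr2) on the left and from -0.45 (C5ar2) to 0.49 (Cr2) on the right, and none was called.

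The 16 genes too low to test included the alternative pathway enzymes Cfb and Cfd and the inhibitor Cfi. Cfb had at most 6 counts in a library and 35 in all, Cfi at most 7 and 28 in all, and Cfd 3 in all. The terminal components C6 and C9 had 2 and 1 counts in all, and the recognition genes Mbl1 and Colec10 had 0 in every library.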

How the data were processed

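Cortex polyA RNA of 18 mice was measured, 1 library per animal as labelled. Per the labels' protocols, strand-specific libraries (Tecan/Nugen Universal Plus mRNA kit) were sequenced as read pairs on an Illumina NovaSeq. The submitters' processing notes name HTSeq 0.6.1, SAMtools 1.5, HISAT2 2.1.0, FastQC 0.11.5 and bcl2fastq, and the build GRCm38. How strand and reads of several genes were handled in counting is not given in the sources used here. The authors deposited raw counts per gene, from which all tests were made, and RPKM values, which equalled the count over library total and a single length per gene in 31735 of the 31735 genes counted in at least 2 libraries (relative tolerance 1e-06). RPKM served to compare levels between genes. It also gave the ratios to C1q and their plot, which were set side by side by genotype without a test.

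Counts were filtered with filterByExpr (edgeR 4.0.16, minimum count 10, R 4.3.3), scaled by TMM and fitted with terms for genotype and sex across all 18 libraries, sharing 1 estimate of spread (biological coefficient of variation 12.2%, 14 residual degrees of freedom). The test was the quasi-likelihood F test of edgeR with robust dispersions, and a gene was called where its p, adjusted by Benjamini-Hochberg over the 18717 genes tested, was below 0.05. CPM use TMM library sizes. Correlations used log2 CPM (prior count 2) and 100000 permutations within genotype and sex, adjusted over 21 pairs. The fit was checked on simulated counts. DESeq2 1.42.0, limma-voom (limma 3.58.1), other scalings, filters and terms, and leaving out each library were alternatives. Adding C4a counts to C4b and a block on a number in the identifiers of the sample descriptions were chosen after seeing the data. The members and all gene lists were chosen with earlier results of these data known. Named were the 7 genes, the 2 tested genes of highest CPM in each further role, any called gene, the 3 genes most like each profile and single markers or extremes picked after their values were seen. Same-numbered replicates did not correlate above 0.1 in every pair and no label says that they are paired, so the numbers were not used as pairs.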

Additional observations from a re-analysis of the deposited data

How the results depend on the processing

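Size factors by another method, and scaling on genes outside chromosome 16, changed no call among the 7 genes. DESeq2 raised the calls over all genes to 250 in Dp16 vs WT (140 with edgeR) and to 405 in Dp16_2xIFNRs vs WT (196 with edgeR), and the complement genes called in Dp16 vs WT to 2. In Dp16_2xIFNRs vs WT the complement genes called were 1 with limma-voom, 1 without the filter, 1 when 1 CPM was required in 6 or more libraries (where C3 and C2 were not tested) and 0 without a term for sex. With the replicate number as a block, 304 genes and 1 complement gene were called there, C4b having an adjusted p = 0.0613. The block changed no other call of the 7 genes. Deviations of same-numbered libraries correlated at 0.038 to 0.31 in Dp16_2xIFNRs vs WT, over 0.1 in 5 of 6 pairs, and at -0.18 to 0.43 in Dp16 vs WT, over 0.1 in 3 of 6, and the labels do not say that numbers pair animals. A number inside the identifiers in the sample descriptions is shared between genotypes by 11 libraries (5 numbers, meaning not given), whose 7 pairs correlated at 0.10 to 0.43. With that number as a random block in limma-voom, chosen after seeing the data, 271 genes and 1 complement gene were called in Dp16_2xIFNRs vs WT. C4b was called (adjusted p = 0.0237) and C3 was not (0.125), as with limma-voom alone. C1qb was not called, and its log2 fold change there was 0.00042. Leaving out 1 library at a time gave 0 to 1 complement genes called in Dp16 vs WT and 0 to 2 in Dp16_2xIFNRs vs WT, with 121 to 270 genes in all for the second. The cause of these shifts was not tested.

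Leaving out single libraries changed the sign of differences near 0. Against WT in Dp16, Serping1 ran from -0.11 to 0.23 on the log2 scale, C1qa from -0.046 to 0.066, C1qb from -0.020 to 0.080 and C1qc from -0.041 to 0.051, and in Dp16_2xIFNRs C1qb ran from -0.077 to 0.025. In Dp16_2xIFNRs vs Dp16, C2 ran from -0.13 to 0.037, C4b from -0.054 to 0.091 and C3 from -0.0066 to 0.38. Correlated pairs numbered 5 as reported, 3 with genotype means alone subtracted and 2 without WT replicate 6. Without that library r was -0.11 for C1qa with Serping1, -0.011 for C1qb with C3, -0.39 for C1qc with Serping1 and -0.091 for C3 with Serping1. Depth limits C3 and C2 most, with as few as 10 and 16 counts in a library.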
